A study of Rattus norvegicus with 6 samples.

Results

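The receptors that carry excitatory and inhibitory transmission by glutamate and GABA were followed in rat spinal cord, in 57 array targets that stand for 47 genes out of 36410 targets on the array. A target is one transcript entry of the array design. Members were chosen by name: every target whose gene symbol is that of an AMPA (Gria), kainate (Grik), NMDA (Grin), delta (Grid) or metabotropic (Grm) glutamate receptor, or of a GABA-A (Gabra to Gabrq), rho (Gabrr) or GABA-B (Gabbr) receptor, and in addition a target that the study calls GluR5, an older name of Grik1. There were 34 glutamate receptor targets for 26 genes and 22 GABA receptor targets for 20 genes. The remaining target matches by its symbol but does not encode a receptor subunit, and was left out of the counts of subunits.

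RNA came from spinal cord sections of adult Lewis rats, fixed in formalin and embedded in paraffin, and each of 6 groups was measured once, on 1 one-colour Agilent array with a pool of 5 rats, or of 3 rats for the healthy control. In 3 groups the rats received T cells specific for myelin basic protein on day 0. On day 4 these were given NMO-IgG, an immunoglobulin preparation with antibodies to the astrocyte water channel aquaporin 4 (ENMO), control IgG (EAEcoI) or PBS (EAEcoP). The other groups had no T cells. They are called NMO-IgG only and control IgG only after the antibody they were given, and healthy control where nothing was given. All treated rats were killed 24 hours after the antibody or its substitute. The transferred cells were a single specificity, and EAE (experimental autoimmune encephalomyelitis) names the 2 arrays with T cells and without NMO-IgG. A pool has no spread between animals, so the comparison of 3 arrays with T cells against 3 without treats arrays of different antibody treatment as the replicates. The arrays of ENMO, EAEcoP and control IgG only were on slide 1, and the others on slide 2. Below, values with T cells come in the order ENMO, EAEcoI, EAEcoP, and values without T cells in the order NMO-IgG alone, control IgG alone, healthy rats, unless an array is named.

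Ionotropic glutamate receptors are cation channels built of 4 subunits. AMPA receptors give the fast excitatory current, with Gria2 setting the calcium permeability of the channel. Kainate receptors act on both sides of the synapse, and NMDA receptors need the obligatory subunit Grin1 beside a Grin2 or Grin3 subunit. Metabotropic receptors signal through G proteins. GABA-A and rho receptors are chloride channels, GABA-B receptors are dimers of Gabbr1 and Gabbr2 that act through G proteins, and in the spinal cord GABA shares the inhibitory role with glycine. Since the tissue was bulk spinal cord, fewer cells of a type and less RNA per cell cannot be told apart.

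The array reads each target through probes of 60 bases. The 61 probes of the members had a GC content of 26.7% to 81.7%, with a median of 45%, against a median of 43.3% over the array. Sequences are shown for the targets on which the results turn, as the first 30 bases of the probe in lower case, as the deposited spot tables give it. The kainate receptor probes come first, because 2 of them stand for the same gene, Grik1.
GluR5 target: ttttgtttcttttatggactgcagtgtaaa
Grik1 transcript target: cacctatgagaaaatgtgggctttcatgag
Grik3: tcaagtccaggccttctagcacgcacccat
Grik2: gctcagtgttactggttacagggaagactg
Next come glutamate receptor targets that separated the arrays with and without T cells, or had an unadjusted p under 0.05 between them.
Grin2d: ccgcccgcgcccacctcgcgttcgctggag
Grin2b: gggtcacgcaaaaccctttcatccccactt
Grin2c: taggctggggtttcttttcataggggcatt
Grm4: caaaaaagcccaaacaaaaactaatcttga
For GABA receptors, Gabbr1 and Gabre are shown with both of their targets, because their differences by T cells had opposite signs, and Gabrr1 because both arrays with NMO-IgG were its highest.
Gabbr1, target AB016161: tctcggtgccattacgttctgtgggcttcc
Gabbr1, target NM_031028: gaccctctgagccccctgaccggcttagct
Gabre, target AF255385: ttcagttcccttcatctaatgggtatctat
Gabre, target NM_023091: tgtttgtgtgtgagattgttacctatgagg
Gabrr1: ccatttgctctttagcgatctcctccaatt
Grin2d is the probe richest in GC of the set, at 81.7%. The longest run of bases that probes of the same gene shared was between 4 and 18, over 15 pairs.

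Values are normalised signal intensities (NSI), the processed signal of a spot after quantile normalisation over the 6 arrays. Signals of different probes are not comparable with each other, so each receptor target is compared only with itself. Of the 57, 44 were above background by the scanner software's mark for at least 1 array (77.2%, against 68.5% of all targets) and 29 on all 6 (50.9%, against 30.4%). The 13 that were above background on none included Gabra4, Gabra6, Gabrg1, Gabrp, Gabrr3, Grik4, Grin3a, 1 of the Gria4 targets and both targets each of Grm6 and Grm8. All 3 GABA-B targets and 7 of 8 NMDA receptor targets were above background on all 6 arrays, but only 1 of 6 AMPA receptor targets.

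Detection itself differed between arrays. On the arrays with T cells 46.4% to 61.3% of all targets were well above background, and on those without 37.4% to 43.8%. Of the members, 32, 40 and 41 were above background with T cells and 34, 32 and 34 without. The lowest NSI that counted as above background was 5.53 to 8.19 with T cells and 10.5 to 11.9 without. Targets close to background could thus be seen on the EAE arrays and missed elsewhere. Of the 34 glutamate receptor targets, 3 were above background on both EAE arrays and on no other, by their brightest probes. These were AMPA receptor targets of Gria1, Gria2 and Gria4. None of the 22 GABA receptor targets had this pattern, and 4.67% of all targets did.

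**Figure D1:**
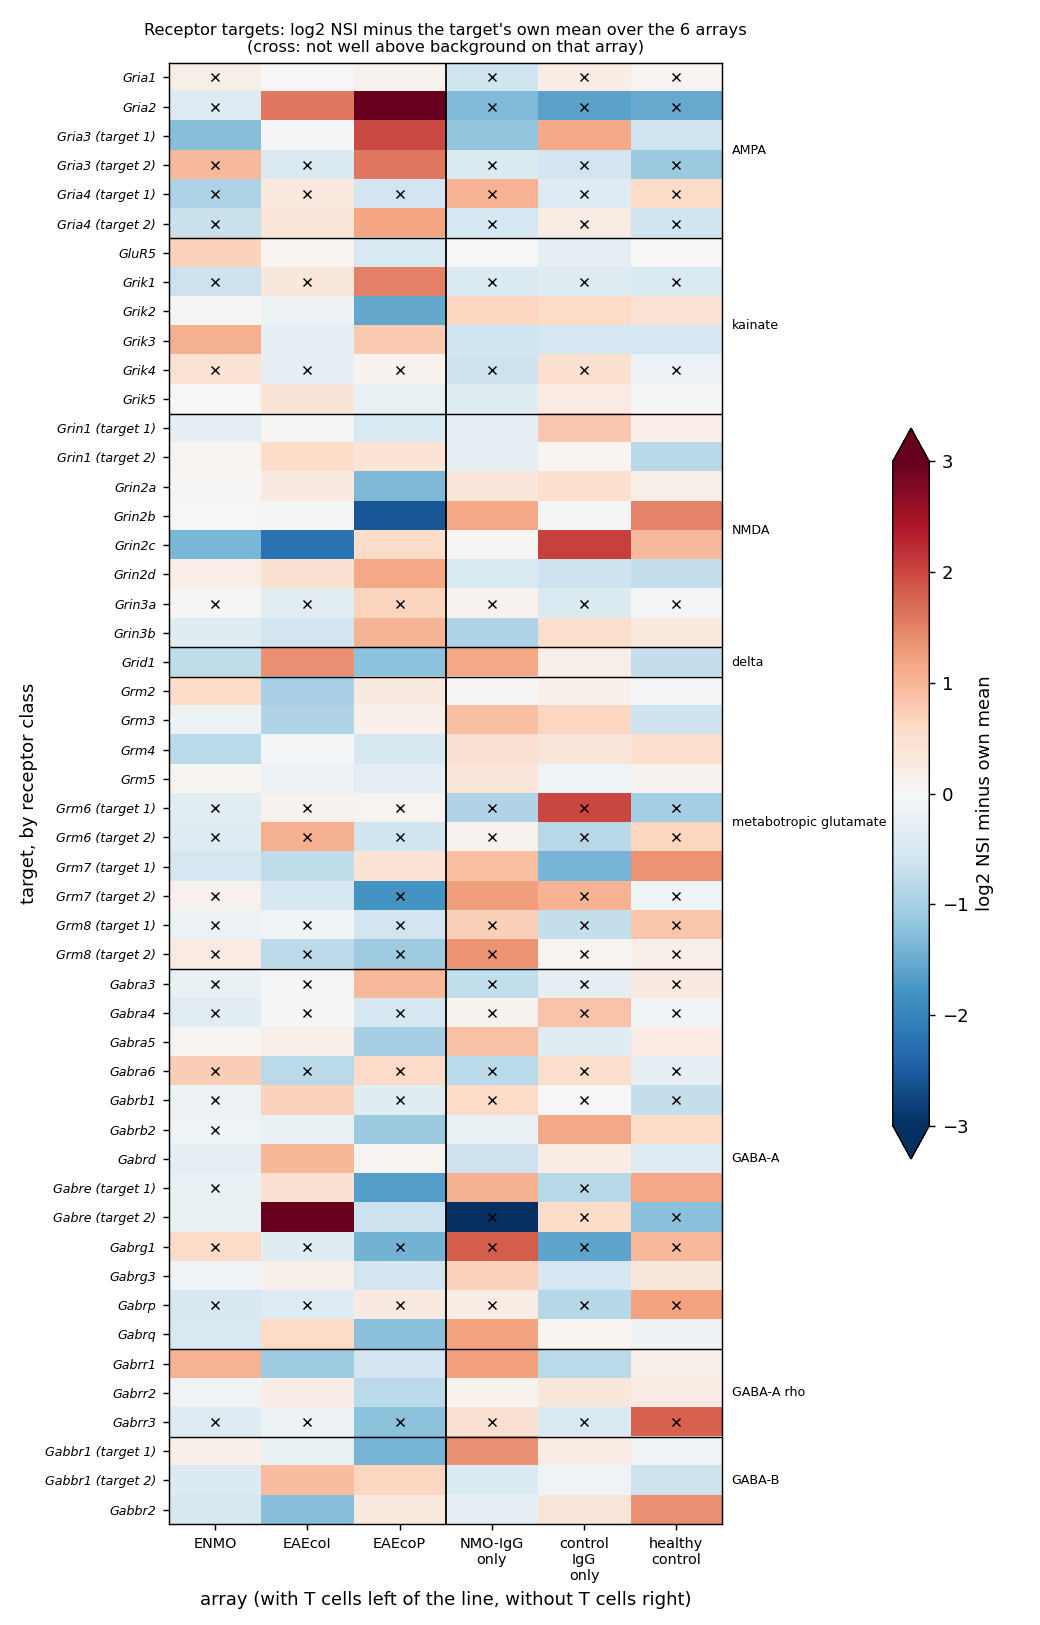
Heat map of the receptor targets, with targets by receptor class down the side and the 6 arrays across, arrays with T cells left of the line. Colour is log2 NSI minus the target's own mean over the 6 arrays, and a cross marks a target not well above background on that array. Most AMPA receptor targets carry crosses outside the EAE arrays, while GABA-B targets carry none, and not every member is drawn.

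The first question was whether receptor transcripts differed between spinal cords with and without T cells. No member passed the test: limma with Benjamini-Hochberg adjustment called 0 of the 43 subunit targets tested and 0 of 24759 targets in all (0.0%), and the smallest adjusted p of a member was 0.26, for Gria2. At an unadjusted p under 0.05 there were 4 members, Gria2 and Grin2d higher and Grin2b and Grin2c lower with T cells, or 4.65% in each direction. Over all targets these shares were 7.96% higher and 3.30% lower. In 4 members all arrays with T cells lay above all arrays without (9.30%, against 10.9% of all targets), and in 2 all lay below (4.65%, against 7.04%). Both shares were near the background. Among the 4, Gria2 was well above background on the EAE arrays alone and was tested only because of them. Its place in this count was thus fixed in part beforehand. All 6 of these members were glutamate receptor targets, and 0 of the 16 GABA receptor targets tested separated the arrays in either direction.

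Among the kainate receptors, Grik3, which encodes the low-affinity subunit GluK3, had an NSI of 285, 113 and 234 with T cells and 89.8, 95.1 and 95.7 without. Every array with T cells was above every array without, EAEcoI by little, and the arrays without T cells were almost alike (SD 0.05 log2, against 0.70 with T cells). The mean difference was 1.07 (log2, SE 0.50), or 2.10-fold, with an adjusted p of 0.453 in limma. It was 1.44 within slide 1 and 0.29 within slide 2. Grik2, which encodes GluK2, lay the other way, at 19.5, 17.0 and 6.50 with T cells and 29.6, 28.0 and 25.3 without. The difference was -1.09 (SE 0.60, adjusted p = 0.506 in limma), and EAEcoP was the lowest array.

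The GluR5 target of Grik1 had an NSI of 141, 91.9 and 63.7 with T cells and 86.3, 71.4 and 88.5 without. The ENMO array stood above the range of the arrays without T cells, EAEcoI lay just above it and EAEcoP below it. The difference by T cells was 0.20 (log2, SE 0.48, adjusted p = 0.882 in limma). Without the ENMO array it was -0.095. The target for the Grik1 transcript itself was above background on EAEcoP alone, with an NSI of 12.1 there and 2.74 to 5.41 elsewhere. On that target EAEcoP was the highest array, and on the GluR5 target it was the lowest. Grik5, a high-affinity subunit, ranged from 39.2 to 65.0 over the 6 arrays with both groups overlapping, and Grik4 was never above background.

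**Figure D2:**
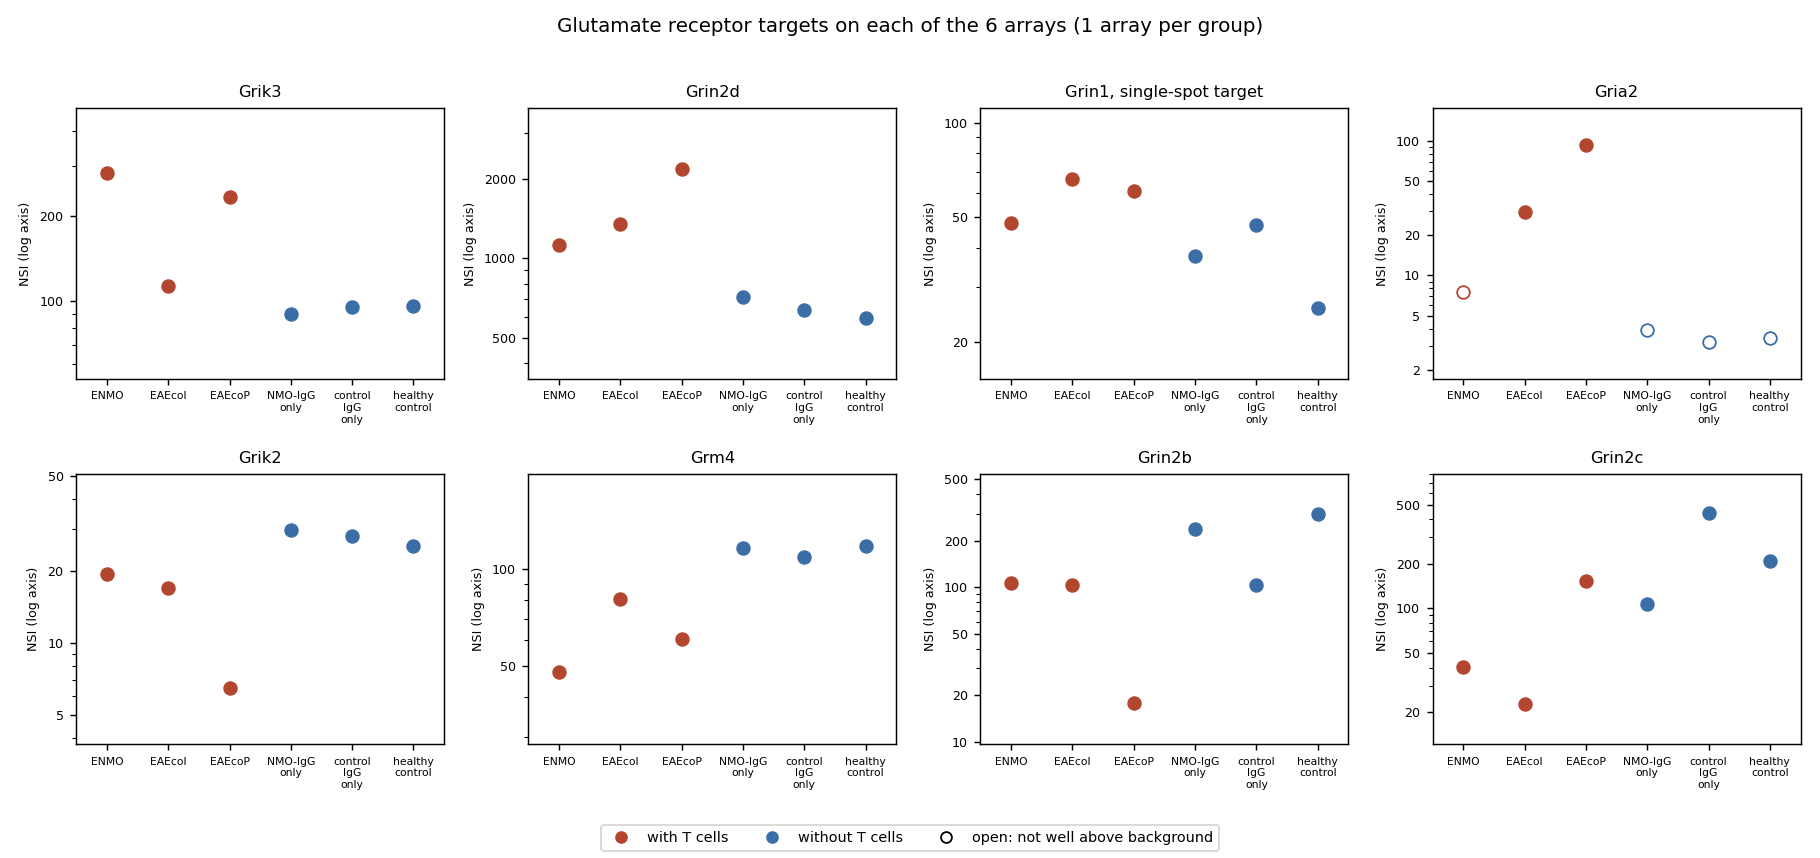
NSI on a log axis for 8 glutamate receptor targets on each of the 6 arrays, 1 point for each array, red with T cells and blue without. Open points were not well above background. Grik3, Grin2d, the single-spot Grin1 target and Gria2 separate upward with T cells and Grik2 and Grm4 downward, while Grin2b and Grin2c overlap between the groups. Gria2 was well above background on the EAE arrays alone.

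For the AMPA receptors, Gria2 reached an NSI of 29.4 on the EAEcoI array and 92.4 on EAEcoP. It was not well above background in ENMO (7.52) or without T cells (3.23 to 3.96). It was thus measured as higher on the EAE arrays only, and no fold by T cells is given. The fitted difference, which takes all signals as they are, was 2.95 (log2, SE 0.85, adjusted p = 0.26 in limma). A second Gria2 probe was above background on no array. Gria4 had 20.7 and 36.7 on the EAE arrays and was not above background on the others (10.2 to 18.9), so no fold is given there either. A second probe of this Gria4 target did not share the pattern. It was above background in ENMO (27.1) and EAEcoP (38.4), and not in EAEcoI (6.92) or without T cells (4.55 to 8.19). Gria1 was above background on the EAE arrays alone, but its NSI of 8.46 and 9.12 lay within the 5.58 to 9.88 of the arrays where it was not. The target NM_001112742 of Gria3 was measured everywhere, at 23.1, 53.1 and 218 with T cells and 24.5, 123 and 36.9 without, and the groups overlapped (difference 0.42, log2). All 5 tested AMPA targets had a positive difference, with a median of 0.60, but 4 of them had passed the filter on dim targets through EAE arrays only.

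NMDA receptor subunits went in both directions. Grin2d, which encodes a subunit with slow channel closing, had an NSI of 1119, 1352 and 2177 with T cells and 712, 636 and 596 without. The groups did not overlap, the difference was 1.20 (log2, SE 0.50), or 2.30-fold, and the adjusted p was 0.41 in limma. Other probes this rich in GC also lay higher with T cells. Targets with probes of at least 70% GC, 142 in number, had a median difference of 0.88, and 31.7% of them lay higher with T cells without overlap. Relative to these probes the difference of Grin2d was 0.32.

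Grin2b and Grin2c encode subunits that pair with Grin1, and both were read by probes printed in 10 spots. Grin2b had an NSI of 106, 103 and 17.8 with T cells and 237, 103 and 296 without. The difference of -1.74 (log2, SE 0.75, adjusted p = 0.43 in limma) came with ENMO, EAEcoI and control IgG only at nearly the same level. Grin2c had 40.5, 22.7 and 154 with T cells and 107, 436 and 208 without, a difference of -2.04 (SE 0.76, adjusted p = 0.366). Spots printed with the same probe leave little error, with a standard error of 0.13 and 0.10 for these differences from spots alone. The standard errors over arrays were wider. Grin2a overlapped at 12.4 to 37.8 with T cells and 35.6 to 43.9 without, and Grin3b had 74.1 to 222 with T cells and up to 157 without.

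The remaining glutamate receptors were delta and metabotropic. Grm4, a presynaptic receptor coupled to Gi, had an NSI of 47.8, 80.7 and 60.6 with T cells and 116, 109 and 118 without. The difference was -0.89 (log2, SE 0.46), or 1.85-fold lower, with an adjusted p of 0.48 in limma, and it was -1.01 within slide 1 and -0.54 within slide 2. The bright target of Grm2, another receptor of this kind, overlapped between groups, with 3296, 1137 and 2699 against 2285, 2506 and 2184. So did Grm3, which astrocytes also carry, with 756 to 1567 against 921 to 2672, and Grm5 with 39.2 to 50.4 against 43.0 to 61.2. Of 8 tested metabotropic targets 7 had a negative difference, with a median of -0.59. Grid1, which takes part in synapse formation, had 267, 1183 and 192 with T cells and 1016, 511 and 278 without, with full overlap.

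The tested GABA receptor targets overlapped between the groups in every case. Gabrq, which encodes the theta subunit, had an NSI of 777, 1616 and 451 with T cells and 2445, 1118 and 958 without (difference -0.74, log2). EAEcoP was its lowest array. It was also lowest for Gabra5, a subunit of extrasynaptic receptors (164, 177 and 77.6 against 285, 120.1 and 183), and for Gabrg3 (121, 146 and 88.4 against 209, 91.2 and 164). Gabrd, the subunit of tonic inhibition, had 186, 452 and 242 with T cells and 148, 263 and 175 without (0.53). Gabbr2, the signalling subunit of the GABA-B dimer, had 88.4, 51.0 and 152 against 104, 160.0 and 320.4 (-0.99).

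Different targets of the same gene often did not go together. In 10 of 15 probe pairs, for 13 genes in all, both probes were above background on at least 1 array. The sign of the difference by T cells was the same in 6 of these and opposite in 4, those of Gabbr1, Gabre and Grin1 among them. Among the 4 pairs measured on all 6 arrays it was the same in 2 and opposite in 2. The brightest Gabbr1 target, AB016161, had an NSI of 1166, 910.2 and 399 with T cells and 2712, 1223 and 985 without (difference -0.98, log2, adjusted p = 0.548 in limma). The Gabbr1 target NM_031028 had 278, 712 and 584 against 274, 347 and 241 (0.78, adjusted p = 0.561). These 2 probes share no run longer than 7 bases, and which transcripts of the gene each one reads was not tested.

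For Grin1, without which no NMDA receptor forms, the target read in 10 spots had 1638, 2034 and 1458 with T cells and 1642, 3466 and 2278 without, with overlap (difference -0.47, log2, SE 0.55, adjusted p = 0.74 in limma). The target U08268 had 48.0, 66.5 and 60.8 against 37.7, 47.2 and 25.6, and did not overlap (0.70, SE 0.50, adjusted p = 0.591). On this second target ENMO and control IgG only were nearly level. Over the 263 probes of the array printed in 10 spots, the SD between spots was 0.54 (log2), which gives 0.77 for a difference between 2 single spots, or 1.70-fold.

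**Figure D3:**
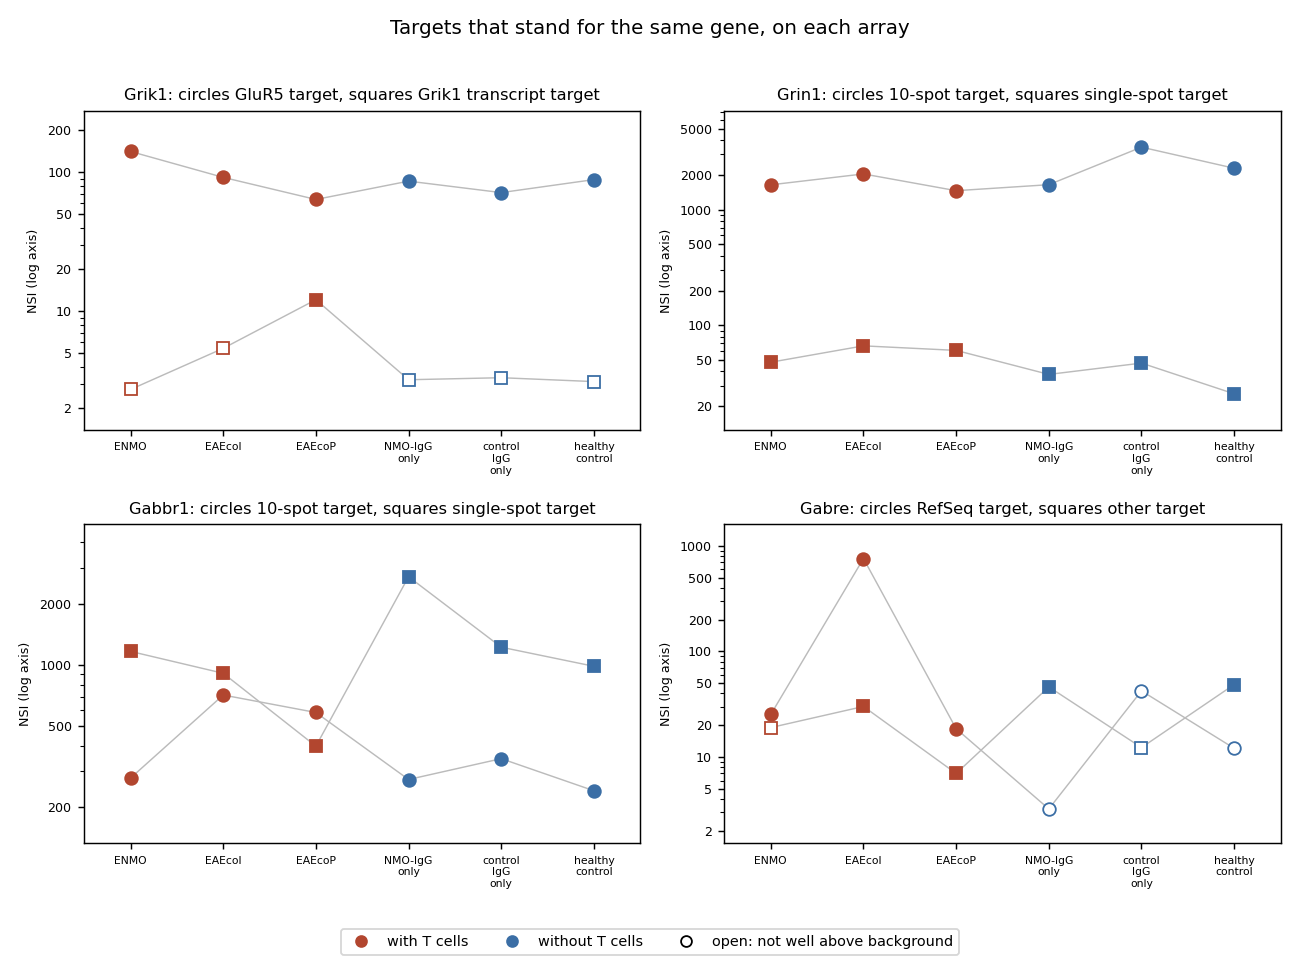
NSI on a log axis for pairs of targets of Grik1, Grin1, Gabbr1 and Gabre on the 6 arrays, circles for one target and squares for the other, red with T cells and blue without, open where not well above background. Lines only join the points of a target. The Gabbr1 targets are highest on NMO-IgG only (2712) and on EAEcoI (712), and of the Gabre targets only NM_023091 reaches 758 on EAEcoI.

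Glutamate and GABA receptor targets were then set side by side. The 27 tested glutamate receptor targets had a median difference by T cells of 0.07 (log2), with 14 higher and 13 lower, and a range of -2.04 to 2.95. The 16 GABA receptor targets had a median of -0.43, with 6 higher and 10 lower, and all targets tested had -0.02. The filter lets in dim targets through the EAE arrays. Over targets measured on all 6 arrays the medians were -0.23 for 19 glutamate and -0.48 for 10 GABA receptor targets, and -0.29 for all targets. These medians are descriptions with no test. The distance of 0.50 between the glutamate and GABA receptor medians was 0.0054 without the EAEcoP array, 0.19 without NMO-IgG only and 0.76 without EAEcoI.

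By array, the medians show that EAEcoP stood apart. There the glutamate receptor targets had a median of 0.27 and the GABA receptor targets of -0.72 around their own mean over arrays (log2), a distance of 0.99. On EAEcoI the order was the reverse, -0.06 and 0.34, a distance of -0.39. On ENMO the values were -0.01 and -0.15. NMO-IgG without T cells gave -0.02 and 0.33, control IgG without T cells 0.17 and 0.14, and the healthy control -0.03 and 0.21. Over targets above background on all 6 arrays the distance was 0.83 on EAEcoP, -0.27 on EAEcoI and -0.75 on NMO-IgG only, so that EAEcoP was widest upward with both sets of targets and the array widest downward differed between them. Relative to probes of like GC content, EAEcoP kept medians of 0.36 and -0.47. EAEcoP was also the array with the most targets above background, and the part of this in the medians was not tested.

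**Figure D4:**
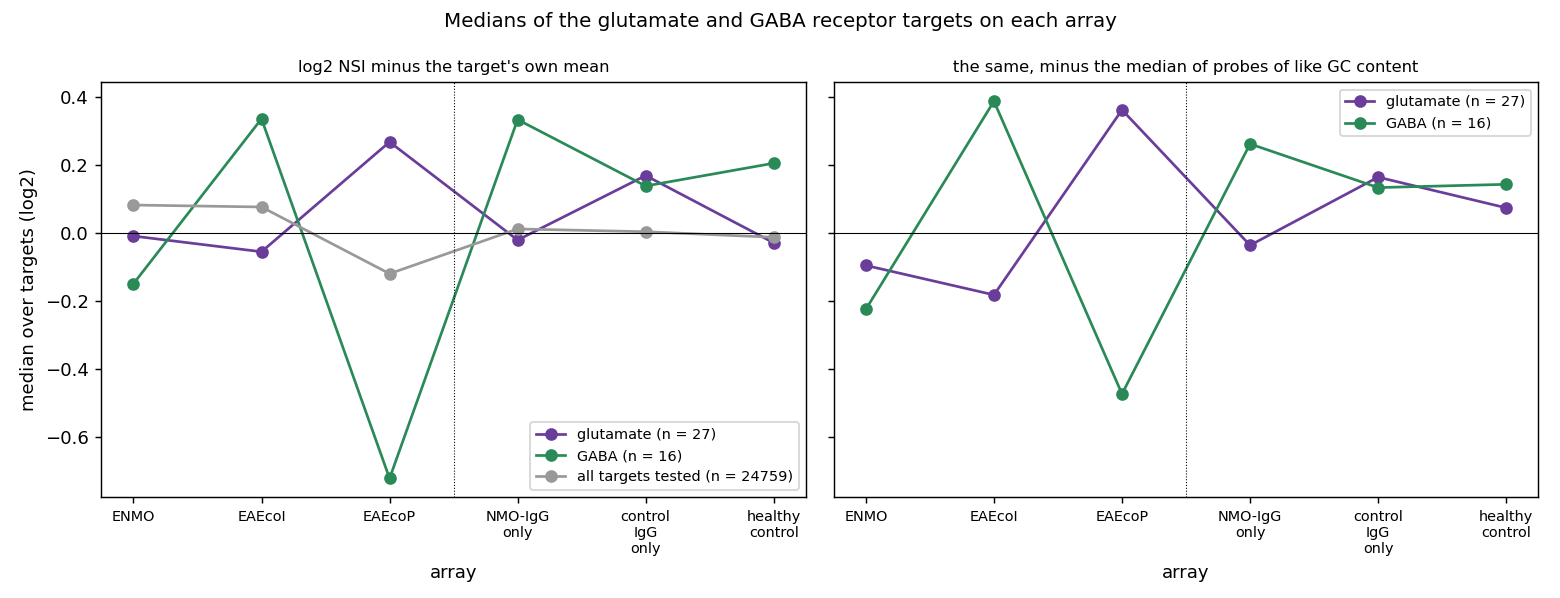
Median over targets of log2 NSI minus each target's own mean, for each array, on the left for glutamate receptor targets, GABA receptor targets and all targets tested, and on the right relative to probes of like GC content. Lines only join the points and the dotted line parts arrays with T cells from those without. The glutamate and GABA receptor medians are farthest apart on EAEcoP, at 0.27 and -0.72.

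The next question was what NMO-IgG did beside control IgG, with T cells (ENMO against EAEcoI) and without (NMO-IgG only against control IgG only). In a limma fit of T cells and antibody together, 0 of 43 members and 0 of 24759 targets passed at an adjusted p under 0.05 (0.0%). With slide as a block, which leaves 1 residual degree of freedom, 94 targets passed, 1 of them a member, Gabre. Without that block, at an unadjusted p under 0.05, there were 2 members, Gabrr1 and Gabre, and 1.47% of all targets. With 1 array on each side, 1 member was more than 2-fold higher with NMO-IgG in both settings (2.33%, against 1.43% of all targets), and 2 members were more than 2-fold lower in both (4.65%, against 2.63%). These counts take the signals as they are, also where a target was not well above background, which was so for 1 of the 2, Gabre, on both arrays without T cells.

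Gabrr1, which encodes the rho1 subunit of GABA-gated chloride channels, was the member that was higher. Its NSI was 2497 in ENMO and 583 in EAEcoI, 4.28-fold higher, and 2829 in NMO-IgG only and 696 in control IgG only, 4.07-fold higher. Both arrays with NMO-IgG were above all others, since EAEcoP had 817 and healthy control 1370.4. The fitted difference was 2.06 (log2, SE 0.69, adjusted p = 0.999993 in limma). The array with NMO-IgG was on slide 1 in the pair with T cells and on slide 2 in the pair without, and the value lay between 1.70 and 2.22 under every alternative run. The next gene in the annotation, Gabrr2, which encodes the rho2 subunit, did not share the pattern, with 72.9, 91.1 and 45.0 with T cells and 84.4, 99.4 and 93.9 without.

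Gabre and Gria3 were the members that were lower. Gabre, which encodes the epsilon subunit, reached an NSI of 758 in EAEcoI on the target NM_023091, against 25.3 in ENMO and 18.6 in EAEcoP, so that ENMO was 29.9-fold lower than EAEcoI. Without T cells this target was not well above background on any array (3.23, 42.4 and 12.1), and no fold is given there. The value rests on the single EAEcoI array, and the other Gabre target, AF255385, had 30.1 on that array and 19.0, not well above background, in ENMO. On the target NM_001112742, Gria3 had 23.1 in ENMO and 53.1 in EAEcoI, 2.30-fold lower. It had 24.5 in NMO-IgG only and 123 in control IgG only, 5.02-fold lower. Its arrays with NMO-IgG were the lowest of the 6, and the fitted difference was -1.76 (log2, SE 0.91, adjusted p = 0.999993 in limma). The other Gria3 target lay the other way, at 6.84 against 2.55 with T cells and 2.61 against 2.31 without. It was not above background on any of these arrays, so no fold is given.

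**Figure D5:**
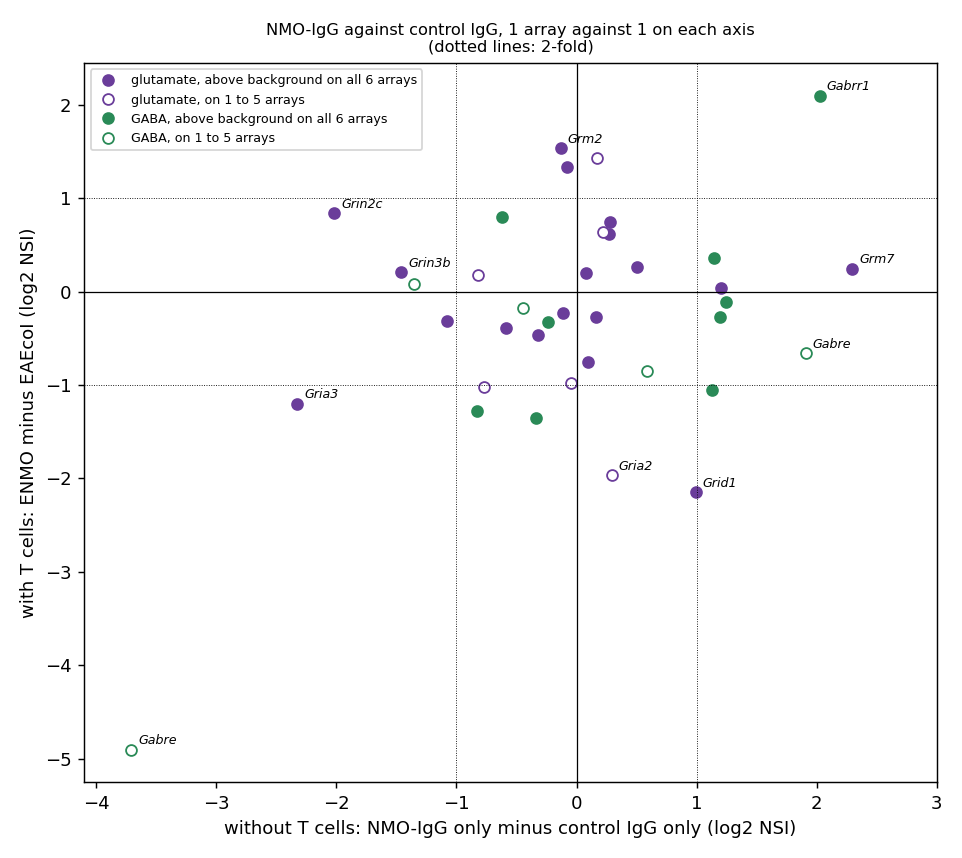
Difference in log2 NSI between NMO-IgG and control IgG for the subunit targets, not all of which are drawn, without T cells on the horizontal axis and with T cells on the vertical axis, 1 array against 1 on each. Filled points were above background on all 6 arrays and dotted lines mark 2-fold. Gabrr1 lies beyond 2-fold upward on both axes and Gria3 and Gabre downward, while most targets are within 2-fold on at least 1 axis.

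Over all targets tested, neither group of receptors lay far to the same side with NMO-IgG in both settings. The glutamate receptor median was 0.03 (log2) with T cells and 0.08 without, and the GABA receptor median was -0.30 and 0.17. GABA receptor targets were higher in 5 and lower in 11 of 16 with T cells, and 8 each without. All targets tested had medians of 0.0070 and -0.0016. Over targets above background on all 6 arrays, the GABA receptor median was -0.296 with T cells and 0.997 without. Glutamate receptor targets had 0.195 and 0.078 there, and all targets 0.145 and -0.037. Without T cells, 5 of these 10 GABA receptor targets were more than 2-fold higher with NMO-IgG (50%, against 7.72% of all such targets) and 0 more than 2-fold lower. Each setting compares 1 array with 1 array, and these medians have no test.

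Control IgG against no antibody gives the background of that comparison. Here too limma called 0 of 43 members and 0 of 24759 targets at an adjusted p under 0.05 (0.0%), or 1 member, Gabre, and 43 targets with slide as a block. Without the block there were 2 members, Gabre and Grm7, and 2.77% of all targets at an unadjusted p under 0.05. In both settings 2 members were more than 2-fold higher (Gabre and the Grm7 target X96790, 4.65%, against 2.56% of all targets) and 2 more than 2-fold lower (Gabbr2 and the Grm7 target NM_031040, 4.65%, against 2.58%). The 2 that were lower were above background on all 6 arrays. Of the 2 that were higher, neither was well above background in control IgG only or healthy control, and X96790 was not in EAEcoP, so that neither was measured as higher in both settings. Grm7, a presynaptic receptor of low affinity, had an NSI of 94.5, 79.7 and 179 with T cells and 251, 51.1 and 343 without on NM_031040, lowest on both arrays with control IgG. On X96790 it was above background on EAEcoI and NMO-IgG only. With T cells the GABA receptor median was 1.03 higher with control IgG than with none, and 13 of 16 targets were higher, while glutamate receptor targets had -0.69. All targets tested had 0.16, with 13417 of 24759 higher. Over targets above background on all 6 arrays the medians were 0.96 for GABA receptors, 0.10 for glutamate receptors and 0.49 for all targets. Without T cells the GABA and glutamate receptor medians over tested targets were small, at 0.15 and 0.16. The comparisons of NMO-IgG with control IgG and of control IgG with none share the arrays EAEcoI and control IgG only.

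In the comparison of ENMO with the mean of the EAE arrays, which has 1 array on one side and no test, 3 of 43 members were more than 2-fold higher (6.98%, against 12.7% of all targets) and 9 more than 2-fold lower (20.9%, against 23.5%). Both shares were below or near the background. The 3 that were higher included Gabrr1 (3.57-fold) and the Grm7 target X96790, which was not well above background in ENMO.

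The 9 that were lower were 7 glutamate and 2 GABA receptor targets. AMPA subunits made up 3 of them, Gria2 (at least 6.37-fold lower), Gria3 (5.87-fold) and Gria4 (at least 2.71-fold). The second probe of the Gria4 target went the other way, 1.19-fold higher in ENMO. The other Gria3 target, above background on EAEcoP alone, had 6.84 in ENMO and 2.55 and 10.4 on the EAE arrays. Gria2, Gria4 and the Grik1 transcript target were tested because their brightest probes were above background on EAE arrays and on no other. A lower signal in ENMO was thus built into their entry, and the tally of AMPA subunits rests on it. Grid1 was 2.57-fold and Grin2c 2.18-fold lower than the mean, but in both ENMO lay between the EAE arrays, as Gabre did (15.3-fold). The Gabbr1 target NM_031028 was 2.33-fold lower and below both. Another was the Grik1 transcript target, for which no fold is given because its EAE mean is too close to the floor. The GluR5 target was 1.81-fold higher in ENMO and Grik3 1.64-fold, both under 2-fold. Against EAEcoI alone these were 1.54-fold and 2.52-fold, and against EAEcoP alone 2.21-fold and 1.22-fold.

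Genes that work with the receptors were followed in 5 lists, and limma called 0 of them with T cells at an adjusted p under 0.05. Of 21 tested scaffolds and auxiliary subunits of glutamate receptors, 6 lay higher with T cells without overlap and 0 lower (against 10.9% and 7.04% of all targets), with a median difference of 0.55 (log2). At an unadjusted p under 0.05 there were 5 of these higher (against 7.96%). Of the 6, 4 had passed the filter on dim targets only through arrays with T cells, which fixed their direction in part. Shank2, a scaffold of the postsynaptic density, had 7.07, 49.6 and 90.2 with T cells and 1.98 to 6.69 without, and Camk2a, its abundant kinase, 20.1, 37.0 and 105.6 against 5.08 to 8.48. Both were well above background on the EAE arrays alone, the same arrays as Gria2. Grip1, which binds AMPA receptors, had 32.5, 79.0 and 81.7 with T cells and was not above background without (8.89 to 25.4).

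Of 10 tested genes of glutamate release and clearance, 1 lay higher and 1 lower without overlap (against 10.9% and 7.04% of all targets). The same 2 had an unadjusted p under 0.05 in limma (against 7.96% and 3.30%), and the median was 0.03. The gene that lay higher was Glul, the astrocyte enzyme that turns glutamate into glutamine. It had 498.8 in EAEcoI and 147 in EAEcoP and was not above background elsewhere (4.62 to 17.4). It was thus tested only through the EAE arrays, which fixed its direction in part. For GABA synthesis, release and clearance 5 genes were tested, and 1 lay higher without overlap (against 10.9%). None had an unadjusted p under 0.05, and Gad1, which makes GABA, was above background on no array. The 10 tested receptor partners and chloride transporters had a median of -0.50 and the 3 tested glycine receptor and transporter genes -0.66. In both lists 0 genes separated the arrays and 0 had an unadjusted p under 0.05.

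Cell type markers give the setting of these values, and their part in them was not tested. Their NSI was summed over genes, so that a sum follows its brightest probes. Of 10 neuron markers on the array 8 were tested, and their summed NSI was 592 to 784 with T cells and 308 to 976 without. Motor neuron markers (all 4 tested) had 286 to 417 and 259.9 to 395, with Slc18a3, the vesicular acetylcholine transporter, above background on all 6 arrays. Astrocyte markers (5 of 7) were dim, at 78.7 to 110.9 with T cells and 112 to 262 without, and Slc1a3 and S100b were above background on none. Oligodendrocyte markers (6 of 6) had 1662 to 3782 and 1972 to 2442. Myeloid markers (6 of 6) had 3152 to 15303 with T cells and 2035 to 3567 without, with ENMO the highest, where Tyrobp alone had 14042. The median difference by T cells of the myeloid markers was 1.34 (log2), with 4 of 6 higher. Of the 3 above background on all 6 arrays, Tyrobp was higher (1.73), and Cd68 (-0.08) and Csf1r (-0.29) were lower. T cell markers (3 of 5) had 917.5 to 2482 and 703.5 to 991.9, of which Cd3d had 2348 in ENMO. Over these 3 markers the median difference by T cells was -0.26 (log2), with 1 of 3 higher, and Cd3e and Cd2 were above background on none. Dorsal root ganglion markers (5 of 5) had 3765 to 9534 and 6650 to 14047, and Schwann cell markers (4 of 4) 105 to 133 and 107 to 212.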

How the data were processed

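RNA of 6 pooled groups was hybridised to 6 one-colour Agilent arrays. Per the file headers, the deposited scanner tables list 45018 spots an array, with linear intensities that the software had corrected for background, and with its marks for outliers and for signal well above background. A second deposited table holds a single linear intensity for each target. It is not quantile-normalised and served as an alternative. Depth has no meaning for arrays, and their number limits the precision.

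Control spots and outliers were dropped. Replicate spots were averaged as log2 intensities, quantile normalisation was run over the 6 arrays, and the brightest probe stood for a target. Where no array of a group was above background the fold is a bound against the lowest signal well above background on each array (or the target's own signal where higher). The limma package (version 3.58.1, R 4.3.3) was fitted on log2 NSI with a mean-dependent prior over 24759 targets, those with a mark of signal well above background on any array, with 4 residual degrees of freedom for T cells and 2 for T cells and antibody together. Benjamini-Hochberg adjustment ran over all these targets, with a threshold of 0.05. A fold was called past 2-fold. The fits were tested on simulated data.

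Symbols came from the deposited files. Of the 57 targets 44 were matched by accession to RefSeq genes of the assembly GRCr8, and all 44 had the same symbol. Probe sequences came from the deposited files, with no genome build. The members, the 5 lists of partner genes and the 8 lists of cell type markers were chosen with earlier results of these data known. Any member could be named, but some members and partner genes are not reported here by name and are not drawn in the figures. Values on every array are given for the targets named in the study, the brightest of each class, those whose arrays with and without T cells do not overlap, and those past 2-fold with NMO-IgG in both settings, and others were chosen after their values were seen. Alternatives were scaling to the 75th percentile, the deposited table, normexp with an offset of 50, the mean over probes, outlier spots kept, other filters on dim targets, slide or antibody as a block, each slide, antibody or T cell setting alone, and leaving out each array.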

Additional observations from a re-analysis of the deposited data

Results flagged for a closer look

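For Gabrq, the theta subunit of GABA-A receptors, NMO-IgG against control IgG was 2.08-fold lower with T cells (777 against 1616) and 2.19-fold higher without (2445 against 1118), so that the log2 differences of -1.06 and 1.13 were -2.19 apart. Each side is 1 array against 1 array and the difference between the settings was not tested. More than 2-fold in opposite directions was seen in 2 of 43 members and in 9.31% of all targets. No group had enough arrays for a check of outlying arrays.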

How the results depend on the processing

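With 1 pooled array per group, differences between animals are not covered, and targets near background are limited by signal. No paired analysis was possible because each group has 1 array and thus no replicate numbers to pair by, while antibody as a block sets each array with T cells against the array of like antibody treatment without. Under all alternatives for T cells 0 members passed, while over all targets the count reached 245 without ENMO, 36 with the deposited table and 28 with antibody as a block. With slide as a block, which leaves 1 residual degree of freedom, 1 member (Gabre) passed for NMO-IgG, as 1 of 94 targets called, and 1 (Gabre) for control IgG, as 1 of 43. The glutamate receptor median by T cells (0.07, log2) was -0.13 with scaling to the 75th percentile, 0.68 with the deposited table, where the median of all targets was 0.69, -0.23 over targets above background on all 6 arrays, -0.081 within slide 1, and from -0.16 to 0.21 with 1 array left out. The GABA receptor median (-0.43) was 0.20 with the deposited table, 0.021 within slide 2 and from -0.66 to -0.16 with 1 array left out. Relative to probes of like GC content, an alternative chosen after seeing the data, these were -0.02 and -0.32. Glutamate minus GABA (0.50) ranged from 0.0054 without EAEcoP to 0.76 without EAEcoI, and was 0.19 without NMO-IgG only. For NMO-IgG the glutamate receptor median (-0.17) was 0.033 with and 0.078 without T cells. For control IgG it (-0.08) was -0.51 with the deposited table, 0.10 over targets on all 6 arrays, -0.69 with and 0.16 without T cells, and the GABA receptor median (0.65) was 0.21, 0.22 with normexp, 1.03 and 0.15, with a distance (-0.72) of -1.72 and 0.0057. For ENMO against EAE the count past 2-fold (12) was 5 with normexp, 5 over targets on all 6 arrays and 20 against EAEcoP alone. The glutamate receptor median (-0.12) was -0.94 with the deposited table, 0.033 against EAEcoI and -0.31 against EAEcoP alone, the GABA receptor median (0.04) -0.64 with the deposited table and 0.74 against EAEcoP alone, and their distance (-0.16) -1.05 against EAEcoP alone. GluR5 by T cells (0.20) turned to -0.095 without ENMO and ranged to 0.48 with 1 array left out. The other 148 of 149 values of single targets under an alternative kept their direction. Most of them belong to targets chosen because their arrays did not overlap or because they passed 2-fold in both antibody settings. That choice fixed much of their direction beforehand, so the count is no test of it. Members without overlap numbered 3 to 8 higher and 0 to 8 lower. These ranges include leaving out 1 array, where fewer arrays have to separate. The shares of all targets under these alternatives were not computed, so the ranges are not read as a result about the members. Where no construction of the alternative shows the cause, the cause was not tested.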
